A study of Homo sapiens with 4 samples.

Results

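Tandem CTCF sites are CTCF-bound positions that lie close beside each other on the same chromosome. They were chosen by summit position alone, as the summits of CTCF peaks on chromosomes 1 to 22 that had another CTCF summit within 2 kb. Of the 36152 peaks in the list, 34750 lay on these chromosomes, and 3761 of them met the rule (10.8%). Chaining neighbours at most 2 kb apart joined these 3761 summits into 1799 clusters. They are set beside 16081 summits whose nearest other summit was 2 to 20 kb away, called intermediate summits, and beside 14908 single summits with no other within 20 kb.

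CTCF is a DNA-binding protein with a row of zinc fingers that reads a long, asymmetric motif. It stops the cohesin complex as cohesin extrudes chromatin loops, so CTCF sites often form loop anchors and domain boundaries, and the direction in which the motif points affects which loops form. Several CTCF sites in a row are known from well-studied boundaries, among them the imprinting control region between H19 and IGF2 and the 3′ end of the immunoglobulin heavy chain locus. Acetylation of lysine 27 on histone H3 (H3K27ac) is found on nucleosomes of active promoters and enhancers, and insulator sites can lie between acetylated and unacetylated chromatin.

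CTCF and H3K27ac were each mapped with chromatin immunoprecipitation followed by sequencing, in DU145, an established human prostate cancer line derived from a brain metastasis. The cells were grown in RPMI medium with serum, and the labels give no genetic change and no drug for either library. Each mark had 1 library, so no value carries a replicate error and no test between groups was made. Input libraries of DU145 and of LNCaP, another prostate cancer line, were not analysed here. The lists hold no gene names, so the cell line's identity was not checked against marker genes. A median of 46 fragments (range 10 to 278) lay at an autosomal CTCF summit and a median of 23 (range 10 to 568) at an H3K27ac summit. Positions are in hg19 and count from 1.

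Most clusters were pairs. There were 1665 clusters of 2 summits, 92.6% of all clusters (Wilson 95% interval 91.2 to 93.7), 112 of 3 and 18 of 4. Larger ones were rare, with 2 clusters of 5 summits, 1 of 6 and 1 of 7. Clusters of 3 or more thus made up 7.45% (interval 6.32 to 8.75). Intervals here and below cover counting error over regions only, and regions of 1 library are not replicates.

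Neighbouring summits of a cluster were a median of 1089.5 bases apart (quartiles 690 and 1539). The smallest spacing was 220 bases and the largest 1999. A cluster spanned a median of 1158 bases from its first to its last summit and at most 5169. Within the 2 kb, spacings between 500 and 1000 bases were the most frequent, with 646 gaps, followed by 545 between 1000 and 1500 bases and 531 between 1500 and 2000. Only 240 gaps were 500 bases or less. Each deposited peak carried 1 summit and no peaks overlapped, and the narrowest peak was 154 bases wide, so sites closer together than about a peak width could not be counted as separate.

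**Figure D1:**
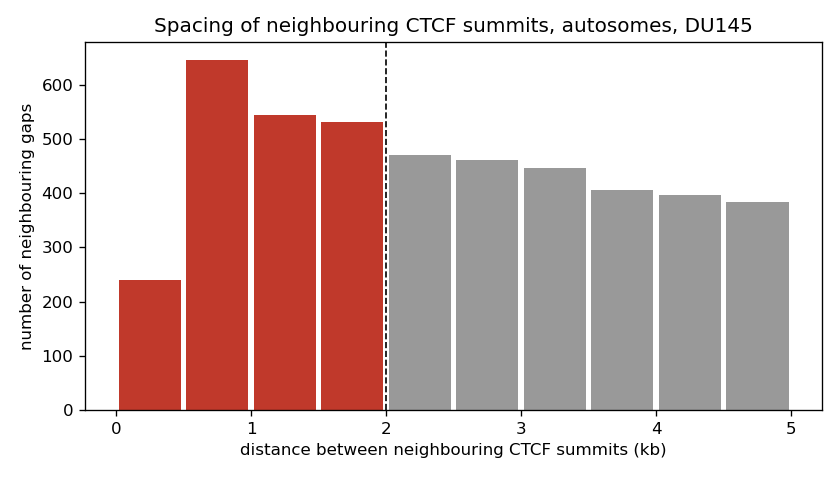
Number of gaps between neighbouring CTCF summits on the autosomes (vertical axis) in bins of 500 bases of distance in kb (horizontal axis); red bars lie within the 2 kb of the rule (dashed line), grey bars beyond it. The bin from 500 to 1000 bases holds 646 gaps, the first bin 240, and the bins just below and just above 2 kb hold 531 and 470.

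Gaps continued past the limit of 2 kb in slowly falling numbers. Gaps up to 2 kb numbered 1962, those of 2 to 4 kb 1784, those of 4 to 6 kb 1538, and those of 18 to 20 kb 850. Just inside the limit, 208 neighbouring pairs were 1800 to 2000 bases apart, with a median fold enrichment of 14.2 at the stronger and 7.48 at the weaker summit. Just outside, 194 pairs were 2000 to 2200 bases apart, with medians of 14.6 and 6.98. Fold enrichment was computed by the authors, as fragment coverage at the summit over that of the local background.

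Tandem summits were similar in strength to the others. Their median fold enrichment was 9.76, against 10.4 for intermediate and 9.14 for single summits. The 10th and 90th percentiles were 4.42 and 20.9 for tandem, 4.94 and 21.05 for intermediate, and 4.81 and 18.4 for single summits. Whole ranges were alike, from 1.52 to 44.2 for tandem and from 1.55 to 46.7 for single summits. Of the tandem summits 15.7% exceeded the 90th percentile of singles and 13.8% lay below their 10th percentile. Of the tandem summits 76.1% had a −log10 q of at least 10, as did 82.7% of intermediate and 79.3% of single summits. These values come from the list that chose the summits and are given as a description.

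The members of a pair were often unequal, about as much as other neighbouring summits. Over the 1665 pairs the median fold enrichment was 14.2 at the stronger and 6.40 at the weaker summit. The median ratio of stronger to weaker was 1.77 (quartiles 1.29 and 2.66), and the largest was 10.4. In 683 pairs (41.0%) the ratio was 2 or more, and in 366 (21.98%) it was under 1.25. Neighbouring summits farther apart had a median ratio of 1.65 at 2 to 5 kb and 1.66 at 5 to 20 kb and at 20 to 100 kb, where the median folds were 13.6 and 7.04. The stronger summit was on the right, toward higher coordinates, in 834 of 1665 pairs (50.1%, interval 47.7 to 52.5), and an even split lay inside the interval. In the 112 clusters of 3, the strongest summit was the middle one in 39 (34.8%, interval 26.6 to 44.0).

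The closest neighbours were the most unequal. For gaps up to 500 bases the median ratio was 2.11, with median folds of 11.4 and 4.66 at the stronger and weaker summit. It was 1.85 for gaps of 500 to 1000 bases, 1.65 for 1000 to 1500 and 1.72 for 1500 to 2000. Across the 240 closest gaps the folds of the neighbours ran against each other, with Spearman's rho of −0.296 and Pearson's r of −0.288 on log2 folds. Over all 1962 tandem gaps rho was 0.0275. Neighbours share the library and part of their local background. The solved backgrounds had a rho of 0.495 across the 240 closest gaps and 0.410 across all 1962. Peaks also did not overlap and each carried 1 summit, while tandem peaks had a median width of 294 bases. Wide peaks therefore had little room to be listed as separate at the smallest spacings. The part of shared background or of peak width in the inequality was not tested.

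Larger clusters held stronger and weaker members. The strongest summit had a median fold of 14.2 in pairs, 16.3 in clusters of 3 and 17.02 in the 22 clusters of 4 or more. The weakest had medians of 6.40, 5.47 and 4.32 in the same order. More summits per cluster widen such a range by themselves. The median over all their summits was 9.82 in pairs, 9.35 in clusters of 3 and 8.04 in clusters of 4 or more. In 529 clusters (29.4%) the strongest summit exceeded the 90th percentile of single summits, a fold of 18.4, and in 49 clusters (2.72%) every summit did.

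The clusters with most summits were looked at one by one. No gene annotation of hg19 was used, so the genes named here come from general knowledge of these loci and were named after the values were seen. The cluster with most summits lay on chromosome 14 from 106144031 to 106148056, and a second lay 116 kb before it, from 106023626 to 106027621. These positions are at the downstream ends of the 2 duplicated blocks of the immunoglobulin heavy chain constant region, which encodes antibody chains in B cells and where runs of CTCF sites are known. The first had 7 summits with folds of 26.1, 3.75, 20.4, 4.32, 18.4, 8.04 and 8.62 from left to right. Strong and weak summits alternated over its first 5 positions. The weakest 2 rested on 12 and 14 fragments (exact Poisson 95% intervals 6.20 to 21.0 and 7.65 to 23.5), against 90 at its strongest (72.4 to 110.6). The second had 5 summits with folds of 28.9, 24.1, 14.8, 9.19 and 4.94, each lower than the one before. The first had 397 acetylated bases between its summits and none in its 10 kb flanks, and the nearest H3K27ac peak to the second was 13.6 kb away. The 2 regions are near copies of each other, so reads placed in one may come from the other.

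The cluster with 6 summits lay on chromosome 11 from 2019780 to 2024247, at the imprinting control region upstream of H19. There CTCF binds the unmethylated maternal copy and keeps enhancers from IGF2, a growth factor gene. Its folds were 17.2, 9.76, 11.2, 10.5, 14.1 and 15.5, and its spacings were 523, 938, 797, 1469 and 740 bases. The 6 summits rested on 33 to 59 fragments. No acetylated base lay within 10 kb of it, and the nearest H3K27ac peak was 29.3 kb away.

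Other clusters of 4 or 5 summits differed in strength and in acetylation. On chromosome 19, from 28265492 to 28268875, 5 summits had folds of 9.14, 10.1, 6.60, 9.35 and 4.81, each below the 90th percentile of single summits, and the nearest H3K27ac peak was 14.7 kb away. On chromosome 3, from 187456753 to 187459962, 4 summits had folds of 19.7, 32.8, 22.1 and 24.8, so each exceeded the 90th percentile of single summits. This run lies inside BCL6, a transcriptional repressor gene of germinal centre B cells. It had acetylated bases on both sides and between its summits, but no summit lay inside an H3K27ac peak. On chromosome 5, from 176881592 to 176884770, 4 summits had folds of 26.8, 10.95, 31.5 and 5.12, with 2 summits inside H3K27ac peaks. A second chromosome 5 cluster, 50.01 kb before it, from 176829679 to 176831583, had folds of 9.82, 4.89, 18.7 and 15.5, with 3 summits inside.

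On chromosome 19, from 1220808 to 1223294, 4 summits with folds of 12.1, 11.1, 5.47 and 17.1 lay inside STK11, which encodes a tumour suppressor kinase. The 10 kb to the left of it held 6293 acetylated bases and the 10 kb to the right 3279. On chromosome 1, the run from 31654488 to 31658688 had folds of 14.2, 11.5, 18.9 and 12.6, with H3K27ac 9.92 kb away. The run from 152431071 to 152434261 had folds of 12.3, 17.8, 3.80 and 18.0, and its nearest H3K27ac peak was 154 kb away. The local background of that last cluster was 2.08 to 3.66 times the lowest in the list. Of these 10 clusters, 6 had H3K27ac within 10 kb, 3 had a summit inside it and 4 had none within 10 kb.

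**Figure D2:**
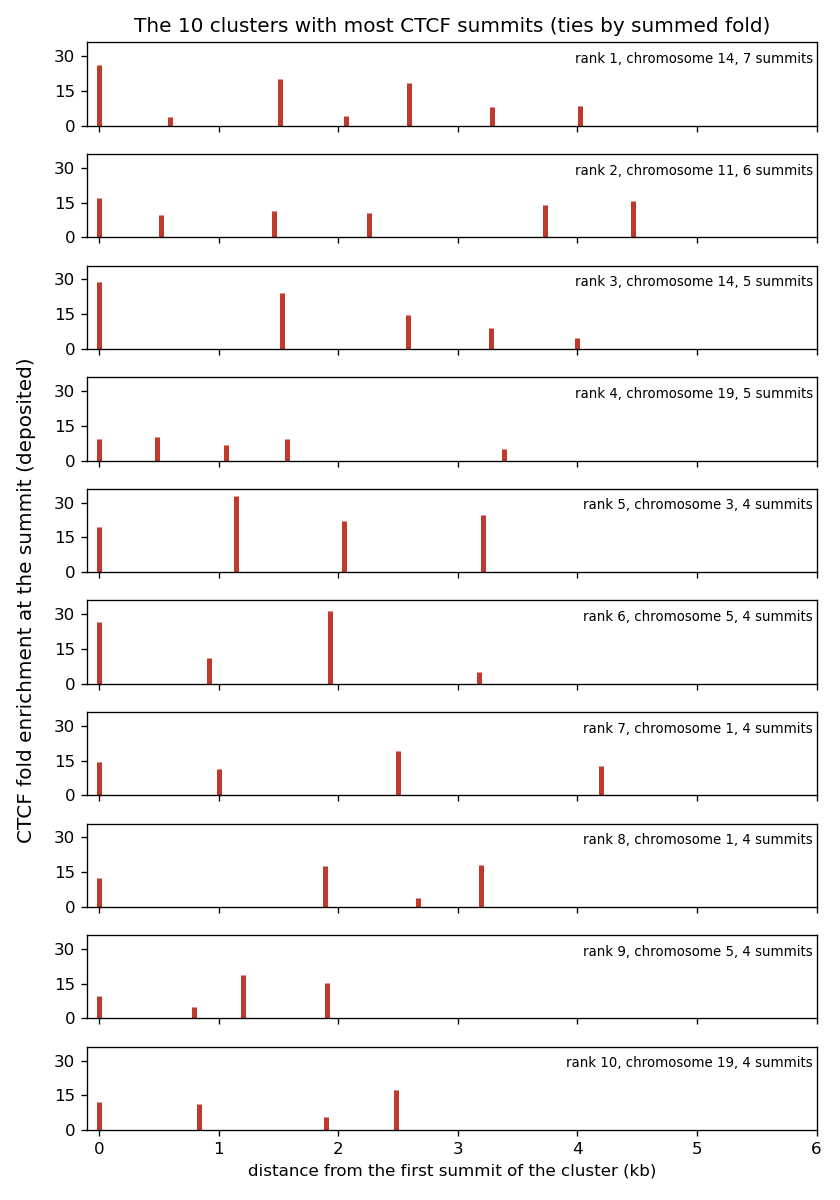
The 10 clusters with most CTCF summits, one panel each, with ties ordered by summed fold: distance from the first summit in kb (horizontal axis) and the deposited CTCF fold enrichment at each summit (vertical axis, 1 line per summit, 1 library). The cluster of 6 on chromosome 11 has folds between 9.76 and 17.2, while the cluster of 7 on chromosome 14 ranges from 3.75 to 26.1.

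Pairs were next ranked by the fold of their weaker summit, which by itself picks pairs of like strength. The pair with the highest fold at its weaker summit lay on chromosome 11 at 64216460 and 64217207, 747 bases apart, with folds of 29.5 and 30.7. Its only acetylation within 10 kb was a run of 329 bases between its summits. The next lay on chromosome 15 at 101547367 and 101548793, with folds of 28.4 and 30.9, and had no H3K27ac within 48.1 kb. The next after it lay on chromosome 15 at 41150039 and 41151487, with folds of 26.9 and 32.1, and had acetylated bases to its left only. Strong pairs without acetylation within 10 kb also included chromosome 5 at 176539055 and 176541049 (folds 25.8 and 26.3) and chromosome 19 at 4523459 and 4525340 (folds 22.9 and 26.9).

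The closest pairs were weak at one summit or both. They lay 220 bases apart on chromosome 12 at 18144951 and 18145171 (folds 4.61 and 12.3), 222 bases apart on chromosome 16 at 16512004 and 16512226 (folds 4.32 and 3.20), and 236 bases apart on chromosome 4 at 140374362 and 140374598 (folds 6.33 and 4.89). The weaker summits of these pairs rested on 15, 20 and 16 fragments. Peaks did not overlap, so spacings this small leave room mainly for narrow ones. The peaks of these pairs were 154 to 238 bases wide.

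Tandem summits were most frequent on chromosome 19, where 277 of 1563 summits (17.7%, interval 15.9 to 19.7) were in tandem. Chromosome 17 followed with 14.1%, chromosome 14 with 14.0% and chromosome 11 with 13.04%. The lowest share was on chromosome 13, with 42 of 669 summits (6.28%, interval 4.68 to 8.38) and no cluster of 3 or more. Chromosome 22 also had no cluster of 3 or more among its 44 clusters. Across the 22 autosomes, the share in tandem and the summits per Mb had a Pearson's r of 0.839 (Spearman's rho 0.811). Without chromosomes 17 and 19, the farthest from the median density, r was 0.669. Both values come from the same summit positions. A higher density by itself puts more summits within 2 kb of another, so the relation is given only as a description.

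The distance between clusters was described without a reference spread, so the values do not say whether clusters gather or keep apart. The median distance from a cluster to the next was 262 kb. Another cluster lay within 50 kb of 325 of 1799 clusters (18.1%) and within 100 kb of 513 (28.5%). Between 20 and 100 kb on both sides, a tandem cluster had a mean of 4.04 further CTCF summits, an intermediate summit 3.66 and a single summit 2.59. The rule for single summits keeps other summits out of the first 20 kb but not out of this range.

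The next comparison set H3K27ac, which the rule did not use, against the clusters. Tandem summits lay inside acetylated regions more often than single summits in these lists. Of 3761 tandem summits, 650 lay inside an H3K27ac peak (17.3%, interval 16.1 to 18.5), against 8.52% of all autosomal summits. The share was 8.56% of intermediate summits (interval 8.13 to 8.999) and 6.27% of single summits (interval 5.89 to 6.67). The tandem share was thus 2.76 times that of singles, and the intermediate share 1.37 times. The tandem share was lower at wider spacings. It was 22.5% for summits beside gaps up to 500 bases and 23.8% at 500 to 1000 bases. It was 14.2% at 1000 to 1500 bases and 10.7% at 1500 to 2000. Of pairs 1800 to 2000 bases apart, 14.4% had a summit inside H3K27ac, against 10.3% of those 2000 to 2200 bases apart. Counted by any shared base, 1035 tandem peaks (27.5%) overlapped H3K27ac, against 14.4% of all autosomal peaks and 10.8% of single ones. Per cluster, 458 of 1799 (25.5%, interval 23.5 to 27.5) had at least 1 summit inside and 163 (9.06%) had every summit inside.

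Acetylated regions were nearer to clusters than to single summits. An H3K27ac peak lay within 1 kb of 39.6% of clusters (interval 37.3 to 41.9), against 20.5% of intermediate and 14.9% of single summits. Within 10 kb it was 991 of 1799 clusters (55.1%, interval 52.8 to 57.4), against 42.9% of intermediate and 27.3% of single summits, and 37.5% of all autosomal summits. With only H3K27ac peaks of a −log10 q of at least 10, it was 43.7% of clusters and 19.5% of single summits. Within 20 kb it was 63.8% of clusters, 56.4% of intermediate and 36.3% of single summits. The ratio of clusters to singles was 2.66 at 1 kb, 2.02 at 10 kb and 1.76 at 20 kb. The median distance to the nearest H3K27ac peak was 6.30 kb for clusters, 14.7 kb for intermediate and 40.5 kb for single summits. More than 100 kb separated 235 clusters (13.1%) and 30.5% of single summits from the nearest one. A cluster's window is longer than a single summit's by its span, but tandem summits counted one by one gave 54.7% within 10 kb.

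**Figure D3:**
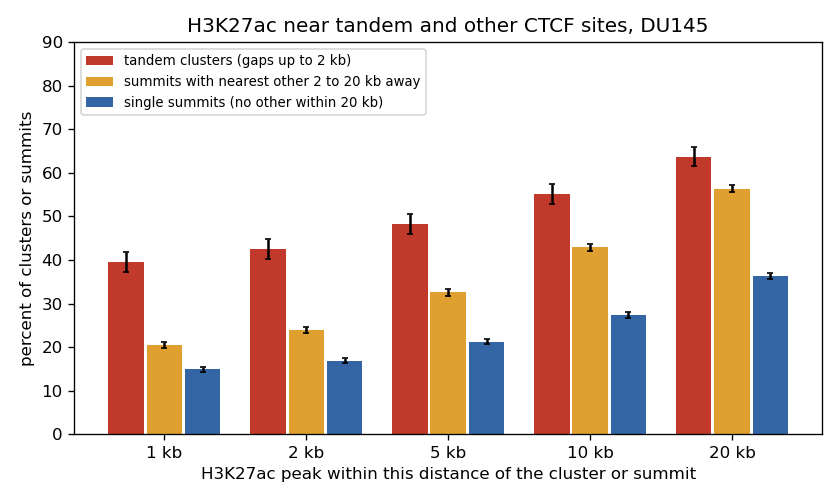
Percent of tandem clusters, intermediate summits and single summits (vertical axis) with an H3K27ac peak within 1, 2, 5, 10 or 20 kb (horizontal axis); error bars are Wilson 95% intervals over regions of 1 library. Clusters are highest at each distance, at 39.6% against 14.9% of singles within 1 kb and 63.8% against 36.3% within 20 kb.

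Tandem clusters also lay in more acetylated neighbourhoods. From 20 to 100 kb away on both sides, H3K27ac peaks covered 4.31% of bases around clusters, 3.78% around intermediate and 2.13% around single summits. Summits were therefore split by the acetylated bases in that range. With none there, 39 of 688 tandem summits (5.67%, interval 4.17 to 7.66) lay inside H3K27ac, against 2.77% of intermediate and 1.85% of single summits (interval 1.51 to 2.25). With up to 2 kb the shares were 11.6% of tandem, 5.40% of intermediate and 5.61% of single summits. With 2 to 8 kb they were 17.5%, 7.91% and 8.70% in the same order. With over 8 kb they were 27.8% of tandem (interval 25.3 to 30.4), 16.3% of intermediate and 14.4% of single summits (interval 12.9 to 16.1). The tandem share was the highest of the 3 in each of the 4 classes. H3K27ac within 10 kb was nearer to even among groups where the neighbourhood was most acetylated. With over 8 kb it was found at 80.2% of tandem, 72.1% of intermediate and 64.5% of single summits. With none in that range it was 21.4%, 15.7% and 7.85% in the same order. Tandem summits come at least 2 to a cluster and can share an H3K27ac peak, so their intervals are too narrow, and the differences were not tested.

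The contrast appeared in all 4 classes of CTCF strength, cut at the quartiles of all autosomal folds. In the weakest class, up to a fold of 6.39, 23.0% of tandem summits lay inside H3K27ac, against 7.62% of single summits. In the next classes the shares were 17.5% of tandem against 5.12% of single summits, 12.6% against 4.93%, and, above a fold of 14.7, 14.9% against 7.66%. In pairs, the stronger summit lay inside H3K27ac in 15.4% (interval 13.7 to 17.2) and the weaker in 18.3% (interval 16.5 to 20.2). Where exactly 1 summit of a pair was inside, it was the stronger in 103 of 254 pairs (40.6%, interval 34.7 to 46.7).

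H3K27ac on the sides of clusters was examined in the 10 kb before the first and after the last summit. Acetylation stood on both sides of 434 clusters (24.1%, interval 22.2 to 26.2; 15.3% with only H3K27ac peaks of a −log10 q of at least 10), on 1 side of 499 (27.7%) and on neither of 866 (48.1%). Of all autosomal summits 16.7% had it on both sides. The shares for intermediate summits were 18.8%, 24.1% and 57.1%, and for single summits 11.2%, 16.1% and 72.7%. In 58 clusters (3.22%) the only acetylation within 10 kb was between the summits. Where both sides were acetylated, the fuller side had a median of 1947 acetylated bases and the emptier 675 at clusters. At single summits the medians were 1491 and 564. Sorting the sides into fuller and emptier makes them differ by itself. The median ratio of fuller to emptier was 2.49 at clusters, 2.39 at intermediate and 2.27 at single summits.

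Left and right flanks were acetylated to similar extents. H3K27ac covered 6.46% of the left and 6.04% of the right flanks of clusters. Of the 454 pairs with 1 acetylated side, it was the left in 226 (49.8%, interval 45.2 to 54.4). It was the side of the stronger summit in 206 (45.4%, interval 40.9 to 49.97), and no test of this share was made.

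Around clusters the acetylation was concentrated within about 1 kb. The share of positions inside an H3K27ac peak was 17.1% at the outermost summits, 18.4% at 250 bases outward, 9.23% at 1 kb, 6.06% at 2 kb and 4.78% at 5 kb. Single summits had 6.27% at the summit, 8.80% at 250 bases, 4.58% at 1 kb, 2.58% at 2 kb and 1.88% at 5 kb. Relative to the coverage 20 to 100 kb away, the value at 250 bases was 4.26 times for clusters, 3.14 times for intermediate and 4.13 times for single summits. At the summit itself the ratio was 3.97 for clusters, 2.27 for intermediate and 2.94 for single summits. At 250 bases coverage thus stood out from the neighbourhood by similar factors at clusters and at singles, but at other distances the factors differed. They were 2.14 at clusters and 2.15 at singles at 1 kb, 1.41 and 1.21 at 2 kb, and 1.11 and 0.88 at 5 kb. These positions lie outward of the clusters, and the stretch between summits is described next.

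**Figure D4:**
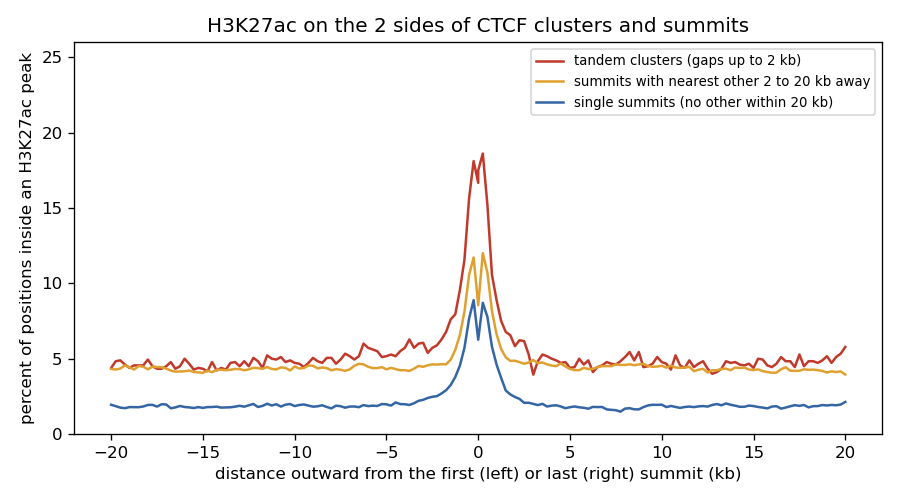
Percent of positions inside an H3K27ac peak (vertical axis) by distance in kb outward from the first summit (negative) and the last summit (positive), for tandem clusters, intermediate and single summits; the stretch between the summits of a cluster is left out. Coverage peaks 250 bases from the summit in each group, at 18.4%, 11.9% and 8.80%.

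Inside clusters, the stretch between neighbouring summits was more often acetylated than the stretch just outside. Of 1962 inner gaps, 644 (32.8%, interval 30.8 to 34.9) held an H3K27ac base, against 972 of 3924 windows of equal length beside the cluster (24.8%, interval 23.4 to 26.1). H3K27ac peaks covered 20.9% of inner bases and 12.7% of bases in those windows. The windows match the gaps in length but not in distance to CTCF, because inner bases have a summit on both sides. Coverage fell with distance outward from the clusters, so the stretches compared differ in distance to a summit as well as in place. In 154 gaps (7.85%) the whole stretch was acetylated. Among pairs 600 bases or more apart, 14.99% of summits lay in H3K27ac, against 24.0% of positions 300 bases inward and 16.9% of positions 300 bases outward. At single summits 6.27% lay in H3K27ac, against 8.94% of positions 300 bases to either side, so coverage was lower at the summit than beside it in both groups. In 132 pairs (7.93%) acetylation lay between the summits but at neither of them.

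Spacing went along with the level of acetylation. H3K27ac lay in 30.4% of gaps up to 500 bases (interval 24.9 to 36.5) and in 41.8% of gaps of 500 to 1000 bases (interval 38.1 to 45.6). It lay in 28.3% of gaps of 1000 to 1500 bases and 27.7% of gaps of 1500 to 2000 bases, although these are longer. Inner bases were covered at 24.7%, 31.9%, 20.3% and 15.3% in the same order. The windows outside had 20.9%, 19.8%, 11.6% and 9.03%, so the inner stretch was higher in each class. Among pairs, acetylation stood on both sides of 23.8% of those up to 500 bases apart, 33.2% at 500 to 1000 bases, 20.1% at 1000 to 1500 and 16.96% at 1500 to 2000. H3K27ac within 10 kb was found at 47.03%, 63.5% and 50.7% of the first 3 classes and at 224 of 448 pairs of the last. The closest pairs thus did not continue the order of the other classes.

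**Figure D5:**
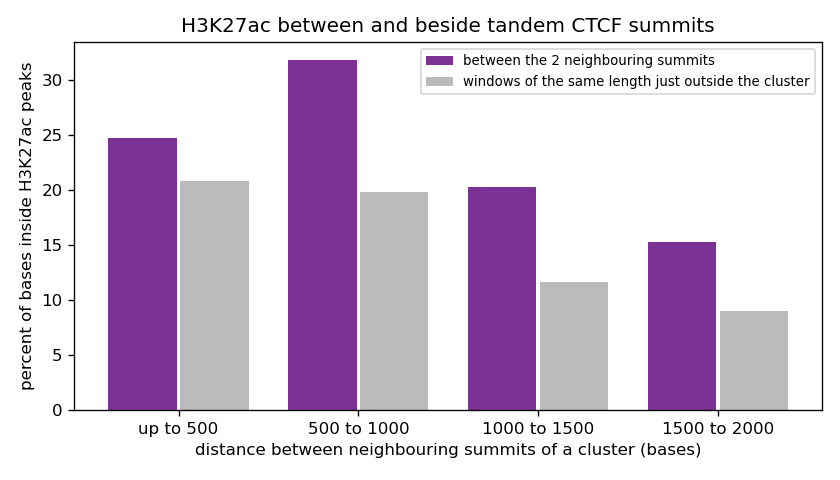
Percent of bases inside H3K27ac peaks (vertical axis) between neighbouring summits of a cluster and in windows of the same length just outside it, by the distance between the summits in bases (horizontal axis). The stretch between summits is higher in each class and highest, at 31.9%, for gaps of 500 to 1000 bases. Windows match the gaps in length, not in distance to the nearest summit.

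Of the 1665 pairs, 322 (19.3%) had H3K27ac on both sides and between the summits, and 77 (4.62%) on both sides but not between. A further 166 (9.97%) had it on 1 side and between, 288 (17.3%) on 1 side only, and 50 (3.00%) between only. The remaining 762 (45.8%) had none. Clusters of 3 had a summit inside H3K27ac in 45 of 112 (40.2%, interval 31.6 to 49.4), against 24.4% of pairs (interval 22.4 to 26.6). A cluster with more summits has more chances to place one there, so these shares do not compare sizes alone. Among clusters of 4 or more it was 6 of 22 (27.3%, interval 13.2 to 48.2), too few to place between the others.

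Where clusters had H3K27ac within 10 kb, the strongest acetylated peak there had a median H3K27ac fold enrichment of 10.98, against 9.82 at intermediate and 8.66 at single summits. The highest was 73.3, beside a pair on chromosome 12 at 52533490 and 52535337. The nearest acetylated base was 1.38 kb past the second summit, and the 10 kb on that side held 8113 acetylated bases while the other side held 0. The CTCF folds of this pair were 16.2 and 4.81, so its weaker summit faced the acetylated side. The next, with an H3K27ac fold of 69.8, was near a pair on chromosome 12 at 122232256 and 122233009, whose CTCF folds were 25.9 and 29.9. The next, with 65.1, was near a weaker pair on chromosome 11 at 65658563 and 65659442, with CTCF folds of 5.16 and 7.31. Both summits of each of these last pairs lay inside H3K27ac peaks. Their flanks were acetylated over 9343 and 9795 bases, and over 4273 and 9812 bases, to the left and right.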

How the data were processed

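Aligner and caller are named in the submitters' processing notes (Bowtie, MACS2; build hg19), without versions, settings or the control library. Each list was called by the authors on 1 library. Each deposited peak has a fold enrichment (a ratio over local background), p- and q-values as −log10, and an integer score; in both lists the lowest −log10 q was 1.31. The score was not used, and folds were compared within 1 list only.

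Summits are the peak start plus the deposited offset. Fragment numbers and local backgrounds were solved from fold and −log10 p with a tolerance of 0.002, which gave whole numbers for 100% of autosomal CTCF peaks and 99.6% of autosomal H3K27ac peaks, with CTCF fragment numbers scaled by 0.911. Overlap means 1 shared base. Shares carry Wilson intervals at 95%, and medians in the alternatives order-statistic ones. Python 3.11.15, pandas 2.3.3 and scipy 1.17.1 were used, and clustering, side counts and solving were tested on simulated data. The members, classes and comparisons were chosen with earlier results of these data known. Named clusters are the 10 with most summits and the 3 leading pairs or clusters for closeness, strength, H3K27ac fold and strength without H3K27ac. The genome of this build was not used, so motifs and their direction were not analysed here. Alternatives for chaining distance, peak strength, flank length, overlap, chromosomes and background are given under the dependence on processing.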

Additional observations from a re-analysis of the deposited data

How the results depend on the processing

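With 1 library per mark, leaving out a replicate was not possible. No paired analysis was possible because the groups have no replicates. Of 54 alternatives, 17 stayed within 1.5 times the number of clusters or within the interval of the value, and 37 did not. For H3K27ac within 10 kb or on both sides, clusters were above single summits in 16 of 16 alternatives, by 1.66 to 2.75 times. For a summit inside H3K27ac it was 7 of 7, by 3.29 to 5.18 times, but there any of at least 2 summits is set against 1; per summit the ratio was 2.76. All alternatives re-cut the same peak lists, and several share the same single summits, so these counts are not independent support. The alternative on local background was chosen after seeing the data.

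Chaining at 1 kb gave 842 clusters with 4.97% of summits, 4.28% of clusters with 3 or more, a median spacing of 649 bases and a median CTCF fold of 8.90, below that of singles (9.14). H3K27ac then held a summit of 32.4% of clusters, lay within 10 kb of 60.1%, on both sides of 30.9% and in 38.7% of inner gaps. Chaining at 5 kb gave 3771 clusters, 23.9%, 15.4%, 2309 bases and a fold of 10.3, with H3K27ac values of 20.9%, 51.3%, 18.6% and 29.7% in the same order. CTCF peaks with a −log10 q of 10 or more gave 1069 clusters, 7.90% of summits, 5.99% with 3 or more, 1208 bases, a fold of 12.1 and a summit inside H3K27ac in 23.01%. H3K27ac peaks with a −log10 q of 10 or more gave 22.9% of clusters with a summit inside, 43.7% within 10 kb, 15.3% on both sides and 26.6% of inner gaps. Flanks of 5 kb gave 48.2% with H3K27ac in reach and 19.2% on both sides; flanks of 20 kb gave 63.8% and 31.2%. Any shared base in place of the summit gave 35.4% of clusters. Without chromosomes 17, 19 and 22, 10.3% of summits were in tandem and 22.1% of clusters had both sides acetylated. With background under 3 times the lowest, 10.4% of summits were in tandem and the median fold was 10.1.

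Of the 10 clusters with most summits, 7 were among the first 10 with the stricter CTCF peaks, where the chromosome 11 cluster of 6 became the largest; 4 were with chaining at 1 kb and 3 at 5 kb, where a cluster of 9 on chromosome 19, 50594200 to 50610762, was the largest. The weakest summits rest on 10 fragments, which limits weaker members of clusters.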

Other observations

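Tandem CTCF summits outside the autosomes were counted by the same rule. Chromosome X had 51 of 809 summits in tandem (6.30%, Wilson 95% interval 4.83 to 8.19) in 25 clusters, the largest of 3, with a median fold enrichment of 7.19. Chromosome Y had 26 of 131 summits in tandem (19.8%, interval 13.9 to 27.5) in 9 clusters, the largest of 6, with a median fold of 2.49. Contigs outside the assembled chromosomes had 127 of 462 summits in tandem (27.5%, interval 23.6 to 31.7) in 38 clusters, the largest of 12, with a median fold of 3.20.

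A local background of 3 times the lowest or more was found at 210 tandem summits (5.58%), at 780 intermediate summits (4.85%) and at 703 single summits (4.72%). In 32 clusters (1.78%) it held for every summit.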
